A study of Homo sapiens with 3 samples.

Results

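The ephrins and their Eph receptors were examined in KYSE140, an established line of human oesophageal squamous carcinoma cells, after cisplatin. Of the 10 members named for the family, 9 genes were measured by probe sets that carry a single gene symbol in the platform annotation: the ephrin genes EFNA1, EFNA3, EFNA4, EFNA5, EFNB1 and EFNB2 and the receptor genes EPHA2, EPHA4 and EPHB4. EPHB2 was not analysed here, since no probe set with 1 symbol names it. The 9 genes were drawn from 19775 in all and were read by 18 probe sets. The group was selected on the measured log2 differences between cisplatin and untreated cells, because EFNA5 was among the lowest genes after cisplatin. The members' values in that comparison are therefore a description and carry no test.

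Cells received cisplatin, which forms platinum adducts and crosslinks on DNA, for 12 h at what the labels give as 10 mM (2 arrays, titled B1 and B2), or no drug (1 array). Cell culture work with this drug normally uses micromolar doses, so that unit may be wrong. Both groups were the same line grown in RPMI medium with serum and antibiotics, and no other agent or genetic change is given for either. The labels do not say whether the cisplatin arrays stem from separate cultures, so their spread may be technical, and the untreated cells have no replicate. The values are RMA intensities, 1 per probe set, with background corrected and arrays brought to a common scale. A log2 difference is a cisplatin array minus the untreated array, and a gene with several probe sets is given by its brightest one unless stated otherwise.

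Eph receptors are receptor tyrosine kinases that bind ephrins on neighbouring cells, so that signals pass at points of cell contact. Class A ephrins hang from the membrane on a lipid anchor, whereas class B ephrins cross it and can signal back into the cell that carries them. In epithelia the system governs cell spacing, sorting at boundaries and motility. EPHA2 is abundant in many squamous carcinomas, and binding of EFNA1 leads to its uptake from the cell surface.

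The members' promoter windows show where transcription of the genes that the results turn on begins. RefSeq (GRCh38.p14) gave 12 windows for the 10 members, each running from 250 bases before to 50 bases after an annotated start. Those of EFNA5, the member with the largest difference, and of EFNA1, EFNA3 and EFNA4, which lie next to each other on chromosome 1 with 0 protein-coding genes between EFNA4 and EFNA3 and 0 between EFNA3 and EFNA1, apart from an annotated read-through transcript of the first pair, are printed 5′ to 3′ on the strand of the gene. Capitals mark the letters GGGCGG or their reverse complement CCGCCC, the core of a GC box. The windows are EFNA5 at chr5:107670888-107671187 (minus strand), EFNA4 at chr1:155063490-155063789 (plus strand), EFNA3 at chr1:155078587-155078886 (plus strand) and EFNA1 at chr1:155127626-155127925 (plus strand).
EFNA5: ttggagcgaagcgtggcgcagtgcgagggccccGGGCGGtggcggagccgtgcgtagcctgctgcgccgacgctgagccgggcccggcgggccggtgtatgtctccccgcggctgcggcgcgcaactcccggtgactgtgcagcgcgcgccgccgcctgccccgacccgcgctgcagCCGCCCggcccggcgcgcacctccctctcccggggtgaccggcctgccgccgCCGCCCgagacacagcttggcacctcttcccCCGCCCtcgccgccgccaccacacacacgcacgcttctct
EFNA4: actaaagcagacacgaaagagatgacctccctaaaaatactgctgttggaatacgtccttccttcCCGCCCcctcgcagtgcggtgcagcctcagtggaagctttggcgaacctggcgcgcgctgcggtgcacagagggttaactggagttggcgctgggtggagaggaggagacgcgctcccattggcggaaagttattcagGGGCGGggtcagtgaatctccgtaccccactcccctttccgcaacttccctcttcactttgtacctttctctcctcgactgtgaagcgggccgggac
EFNA3: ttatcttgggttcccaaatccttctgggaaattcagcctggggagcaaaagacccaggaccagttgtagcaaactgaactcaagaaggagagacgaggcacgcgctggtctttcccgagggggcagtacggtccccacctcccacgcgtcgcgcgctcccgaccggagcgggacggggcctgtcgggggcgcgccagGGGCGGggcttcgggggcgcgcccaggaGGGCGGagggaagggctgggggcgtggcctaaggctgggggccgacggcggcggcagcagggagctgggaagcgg
EFNA1: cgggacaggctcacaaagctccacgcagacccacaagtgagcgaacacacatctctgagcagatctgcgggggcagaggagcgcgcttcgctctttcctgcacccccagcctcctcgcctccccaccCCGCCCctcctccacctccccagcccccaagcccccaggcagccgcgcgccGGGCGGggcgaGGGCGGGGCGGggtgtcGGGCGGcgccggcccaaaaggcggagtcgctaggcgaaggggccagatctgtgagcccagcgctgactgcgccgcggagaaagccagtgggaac
The EFNA5 window was 78% G and C and held 47 CG dinucleotides, more than 97.6% of 35097 windows of the same length, whose median was 14. The windows of EFNA1 and EFNA3 held 28 CG dinucleotides each and that of EFNA4 held 20. GGGCGG in either orientation, counted with overlaps, occurred 4 times in the EFNA5 window, 2 times in EFNA4, 2 times in EFNA3 and 5 times in EFNA1, and at least once in 44.9% of all windows. CCAAT, found on one strand or the other in 34.6% of windows, occurred in the EFNA4 window alone among these 4. TATAAA (11.5% of windows), CACGTG (7.25%) and TGANTCA (7.71%) were not among the letters of the 4 windows. All 12 windows of the members held GGGCGG.

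EFNA5, a class A ephrin best known for repelling growing axons in the mouse visual system, was far lower after cisplatin. Its intensity was 74.3 in B1 and 44.9 in B2, against 282 in the untreated array. Both cisplatin arrays lay well below the untreated one, at 26.4% of its level in B1 and 15.9% in B2. The log2 difference was -1.92 in B1 and -2.65 in B2, a mean of -2.29 ± 0.51 (SD, n = 2). Across all genes 0.678% were at least 2-fold lower in both cisplatin arrays (134 of 19775), and EFNA5 was the only 1 of the 9 members among them. It ranked number 7 of those 134 by mean difference. The gene just before it was KLHL29 at -2.32 and the gene just after it was GPR39 at -2.28, so its rank is not separated from its neighbours by the spread of its own cisplatin pair. In bulk RNA fewer cells of a type and less RNA per cell cannot be told apart.

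The lower level was read by 3 of the 4 EFNA5 probe sets. Beside the brightest one (227955_s_at), 214036_at had 74.9 in B1 and 47.9 in B2, against 172 in the untreated array. The third, 233814_at, had 25.2 and 21.7 in the cisplatin arrays, against 85.3 in the untreated array. For this pair of probe sets the log2 differences were -1.20 and -1.84, and -1.76 and -1.98. Both were thus lower in both cisplatin arrays, as were 27.4% of all genes by their brightest probe sets. The fourth, 207301_at, was dim on every array, with 14.5 in B1, 18.1 in B2 and 15.8 untreated, and its log2 differences were -0.12 and 0.20. The mean over all 4 probe sets was -1.41.

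**Figure D1:**
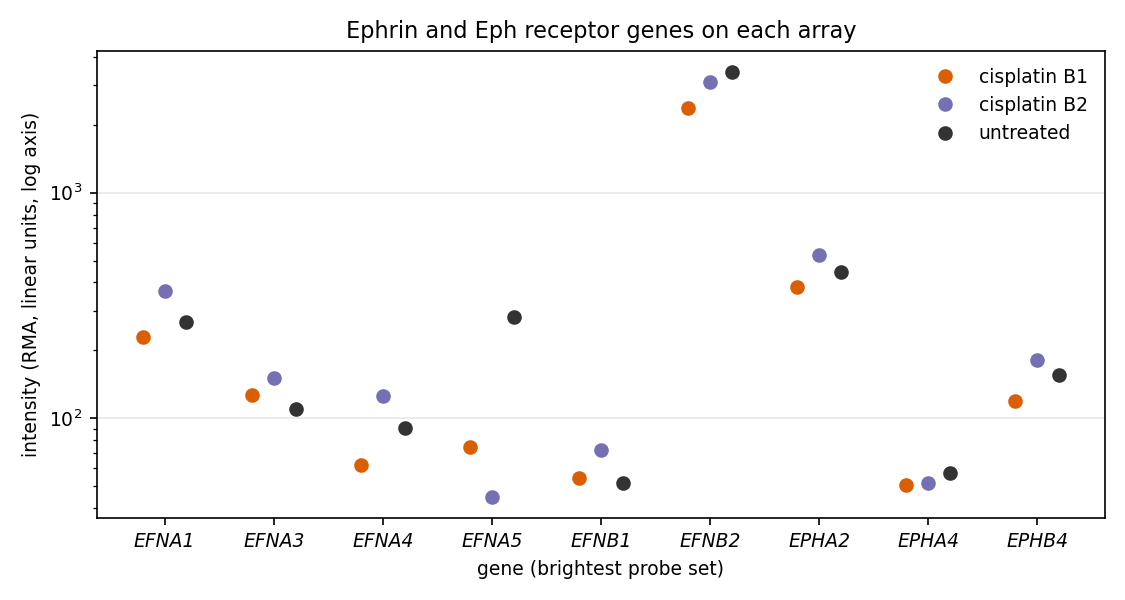
Intensity of the brightest probe set of each measured member (log axis, RMA units) on cisplatin arrays B1 and B2 and on the untreated array. EFNA5 stands at 74.3 and 44.9 under cisplatin against 282 untreated, while the arrays of every other member lie less than 2-fold from the untreated one.

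The other class A ephrins did not share this. EFNA1, a ligand of EPHA2 first found as a cytokine-inducible gene of endothelial cells, had an intensity of 229 in B1 and 367 in B2, against 268 in the untreated array. EFNA4 had 61.9 in B1 and 126 in B2, against 90.6 untreated. For both genes the untreated level lay between the cisplatin arrays, with log2 differences of -0.23 and 0.45 for EFNA1 and of -0.55 and 0.48 for EFNA4. EFNA3 had 126 in B1 and 151 in B2, against 110 untreated, and was higher in both arrays by 0.20 and 0.46. In B2 the 3 neighbouring genes therefore differed from untreated by similar amounts (0.45, 0.46 and 0.48), whereas in B1 they differed in direction. Each was read by a single probe set. The sequences of the probes were not used, so whether the EFNA3 and EFNA4 probe sets also read the read-through transcript was not tested.

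The class B ephrins carry a cytoplasmic tail that docks PDZ and SH2 proteins. EFNB2, the partner of EPHB4 and a marker of arteries in the mouse, had an intensity of 2371 in B1 and 3102 in B2, against 3432 untreated. Both cisplatin arrays were lower, by -0.53 and -0.15 on the log2 scale (mean -0.34 ± 0.27, SD, n = 2). Its second probe set, 202669_s_at, had 718 in B1 and 1087 in B2, against 1068 untreated, so that only B1 was lower there. EFNB1, an X-linked ephrin whose loss causes craniofrontonasal syndrome, had 54.1 in B1 and 72.2 in B2, against 51.5 untreated. Both cisplatin arrays were higher, by 0.07 and 0.49, and the B1 difference is small beside the 0.29 SD of the pair.

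Of the receptors, EPHA2 differed little. It had an intensity of 382 in B1 and 529 in B2, against 446 in the untreated array, with log2 differences of -0.22 and 0.25 and a mean of 0.01 ± 0.33 (SD, n = 2). EPHB4, the receptor of EFNB2, had 119 in B1 and 182 in B2, against 156 untreated, and its differences were -0.39 and 0.22. For each of these receptors the untreated level lay between the cisplatin arrays. The second EPHB4 probe set, 216680_s_at, had 94.4 and 97.7 in the cisplatin arrays, against 93.0 untreated.

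EPHA4, which binds ephrins of both classes, gave different readings by probe set. Its brightest, 229374_at, had an intensity of 50.7 in B1 and 51.6 in B2, against 57.0 untreated, with log2 differences of -0.17 and -0.15. By contrast 227449_at had 12.6 in B1 and 33.1 in B2, against 45.4 untreated, or 27.8% of the untreated level in B1 and 73.0% in B2. With 206114_at the values were 24.0 and 42.6 under cisplatin against 43.7 untreated, and with 228948_at they were 11.0 and 16.8 against 19.2. These 3 probe sets were low mostly in B1 (log2 differences of -1.84, -0.86 and -0.81), with smaller ones in B2 (-0.45, -0.04 and -0.20). In all, 4 of the 5 EPHA4 probe sets were lower in both arrays, and the mean over all 5 was -0.46, against -0.16 for the brightest. All 5 were dim, with mean log2 levels below 6, and no detection calls were used.

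**Figure D2:**
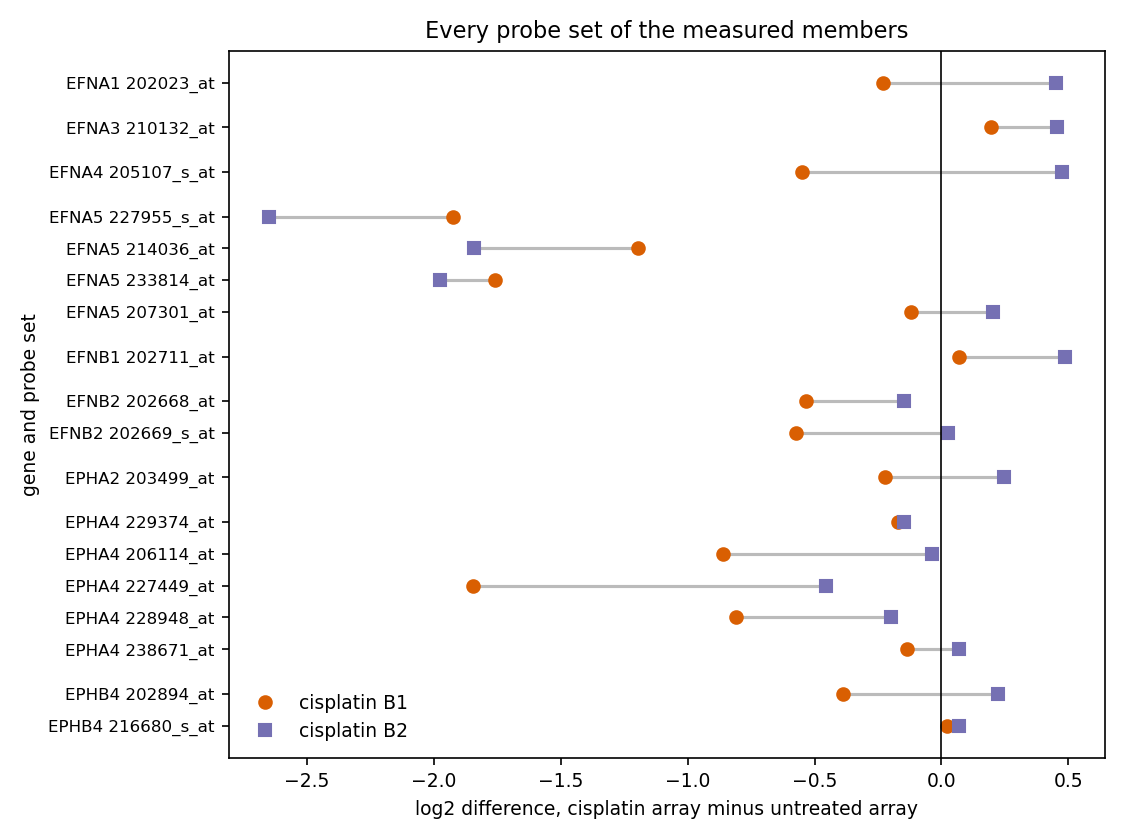
Log2 difference from the untreated array for each of the 18 probe sets of the 9 measured members, with circles for cisplatin B1 and squares for B2 and a grey line joining them. The 3 left-hand EFNA5 probe sets lie below -1 in both arrays, and EPHA4 probe set 227449_at is low mainly in B1.

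Taking the members as a group, 3 of 9 were lower in both cisplatin arrays (EFNA5, EFNB2 and EPHA4) and 2 were higher in both (EFNA3 and EFNB1). Over all genes 27.4% were lower in both and 39.2% higher in both. The remaining 4 (EFNA1, EFNA4, EPHA2 and EPHB4) were lower in B1 and higher in B2, a combination found in 17.3% of all genes. The median log2 difference of the members was -0.23 in B1 and 0.25 in B2, against 0.03 and 0.05 over all genes. Since EFNA5 chose the group, nothing is read from these counts. A mean log2 level of at least 6 was reached by 7 of the 9, with EFNB1 and EPHA4 below it.

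For 6 of the 9 members (EFNA1, EFNA4, EFNB1, EFNB2, EPHA2 and EPHB4) the gap between the cisplatin arrays was wider than the distance of their mean from untreated. The share of all genes that meet this was not counted, so it is not read as a trait of the members. B2 was above B1 for 8 of the 9 members, all but EFNA5, whereas B2 was above B1 for 51.9% of all genes. By size, the B2 minus B1 difference on the log2 scale was largest for EFNA4 (1.03), followed by EFNA5 (-0.73), EFNA1 (0.68) and EPHB4 (0.61), and smallest for EPHA4 (0.02). The SD over all genes was 0.56 for B2 minus B1, 0.33 for B1 minus untreated and 0.60 for B2 minus untreated. Of 11 squamous epithelial markers measured of 14, 10 were likewise higher in B2 than in B1, and their summed intensity was 25911 in B1 and 41357 in B2, against 28547 untreated. All 11 had a mean log2 level of at least 6. Endothelial markers, which matter because EFNB2 and EPHB4 are vessel genes, summed to 228 in B1 and 215 in B2, against 188 untreated, and 0 of 10 reached a mean log2 level of 6. Fibroblast markers (10 measured, 2 of them at that level) summed to 394 in B1 and 487 in B2, against 363 untreated. Of these 8 were higher in B2 than in B1, but most of the rise was in THY1 (61.6 and 144, against 59.5 untreated). Leukocyte markers (9 measured of 10, 0 of them at that level) summed to 200 and 187 against 184. The part of these marker differences in the members' values was not tested.

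The 12 remaining genes of the family were also measured, outside the choice of members. No gene passed the limma test at an adjusted p of 0.05, whether among these 12 (0, and 0 at an unadjusted p of 0.05) or among all 19775 genes (percent called 0, with 2.09% lower and 0.764% higher at an unadjusted p of 0.05). EFNB3, a class B ephrin of the nervous system, had 68.4 in B1 and 291 in B2, against 83.9 untreated, so that only B2 was higher, by 1.80 on the log2 scale, and its second probe set did not show this (0.26 in B1 and 0.18 in B2). EPHB3, a receptor that positions cells in the mouse intestinal crypt, had 76.4 and 112 under cisplatin against 62.0 untreated, higher by 0.30 and 0.86, but its second probe set was higher in B2 alone (0.00 and 0.38). EPHA1, an epithelial receptor, had 66.4 in B1 and 129 in B2, against 81.1 untreated, and the ligand gene EFNA2 had 104 and 191 against 111. In these last genes B1 was slightly below the untreated array and B2 above it, which the second brightest probe set of EPHA1 did not show (0.20 and 0.28) and that of EFNA2 showed only weakly (-0.05 and 0.02).

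The other 8 were dim, with mean log2 levels below 6. The receptor genes EPHA5 (0.68 in B1 and 0.54 in B2) and EPHA6 (0.29 and 0.58) were higher in both arrays at intensities of at most 18.7. The second brightest EPHA5 probe set was lower in both (-0.13 and -0.07). EPHA8 (-0.28 and -0.11), EPHA10 (-0.17 and -0.27) and the kinase-inactive receptor gene EPHB6 (-0.16 and -0.32) were lower in both. However, the other EPHA8 probe set was higher in both (0.06 and 0.30). For EPHA10, 243717_at was lower in both (-0.18 and -0.01) and 1553371_at higher in both (0.11 and 0.29). EPHA3, EPHA7 and EPHB1 lay on both sides of the untreated level, with log2 differences between -0.04 and 0.36. Counting these 12 genes by their brightest probe sets, 3 were lower in both arrays and 3 higher (25% each, against 27.4% and 39.2% of all genes). Their medians were 0.00 (B1) and 0.26 (B2), and none was as far below the untreated array as EFNA5.

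EFNA5 had the longest genomic span of the measured members. The annotated length of the gene in RefSeq, introns included, was 294 kb for EFNA5 on chromosome 5, 156 kb for EPHA4 on chromosome 2, 45.9 kb for EFNB2 on chromosome 13 and 31.7 kb for EPHA2 on chromosome 1. The other 5 spanned at most the 24.96 kb of EPHB4 and at least the 5.81 kb of EFNA4. Thus, by their brightest probe sets, the 3 members that were lower in both arrays were the 3 longest measured. This describes 9 genes whose choice rested on EFNA5. EPHA4 was itself dim, with a mean log2 level below 6, and the second EFNB2 probe set was lower in B1 alone. Nothing is therefore read from this order. Of the 5 other family genes over 100 kb (EPHA3, EPHA5, EPHA6, EPHA7 and EPHB1), 0 were lower and 2 higher in both arrays, with a median mean difference of 0.16. All 5 were dim, with mean log2 levels below 6. A fall could hardly be seen in them, so nothing is read from these counts. Long genes with a mean log2 level of at least 6 were mostly lower on these arrays. Among 439 genes of 200 to 400 kb with a mean log2 level of at least 6, the median log2 difference was -0.56 in B1 and -0.53 in B2, and 76.5% were lower in both arrays. Of the 439 genes, 6 (1.37%), EFNA5 itself included, had a mean difference as low as that of EFNA5. Since EFNA5 was chosen for its low value, this place follows from the choice and is not read as a result. The 154 genes over 400 kb with a mean log2 level of at least 6 had less negative medians, of -0.50 and -0.37. Of these 64.3% were lower in both arrays and 0 were as low as EFNA5, a count that rests on the same choice. By span EPHA4 falls at 100 to 200 kb, where the medians were -0.39 and -0.33 over 1094 genes with a mean log2 level of at least 6. EPHA4 itself, below that level, is not among the 1094. EFNB2 and EPHA2 fall at 25 to 100 kb, with medians of -0.07 and -0.05 over 3892 genes at the same filter. The rest fall under 25 kb, with medians of 0.08 and 0.11 over 4624 genes, which leave out EFNB1 as dim. Span and cisplatin response were compared in this way with the trend already known from these arrays, so the bins are no independent support for it.

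**Figure D3:**
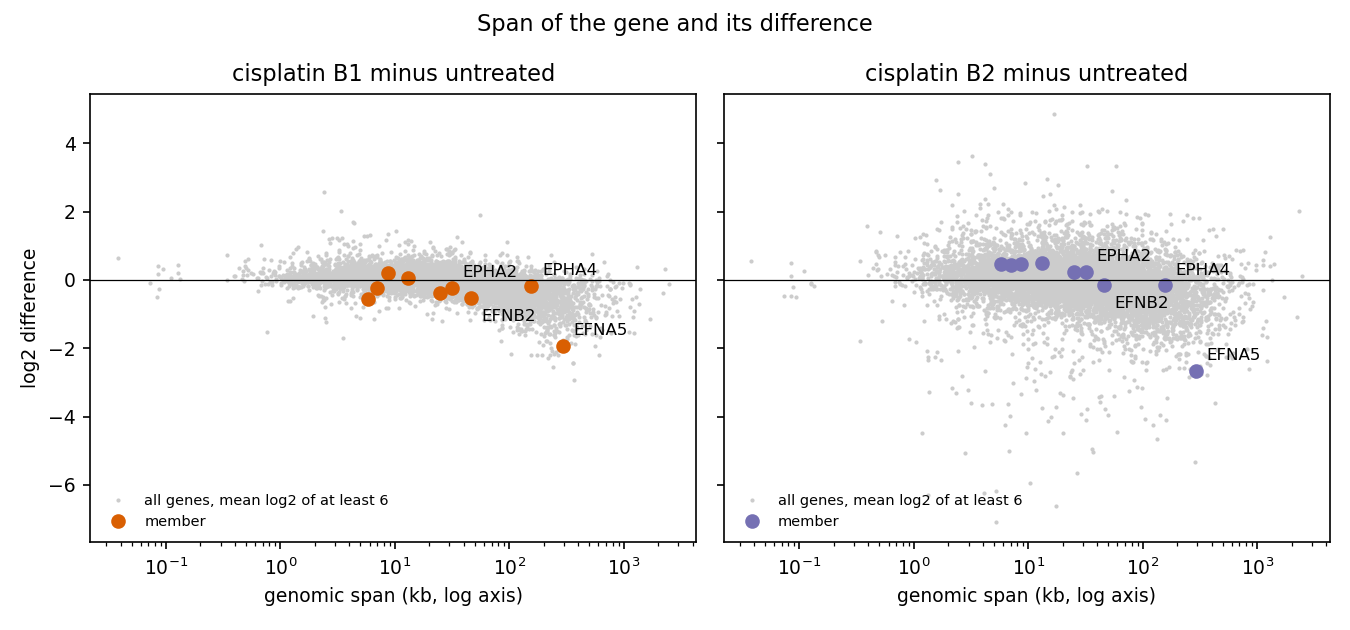
Log2 difference from untreated against genomic span (kb, log axis) for all named genes with a mean log2 level of at least 6 (grey) and the 9 members (coloured), for cisplatin B1 on the left and B2 on the right. EFNA5, at 294 kb, lies at the lower edge of the grey points of like span at -1.92 and -2.65, and the shorter members lie near 0.

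The genes outside the family whose pattern over the 3 arrays was most like that of EFNA5 were GPR39, KLHL29, SRGAP1, NFIA and THRB. Likeness was the distance between the pairs of log2 differences in B1 and B2, among genes with a mean log2 level of at least 6. GPR39, a zinc-sensing receptor, had -1.99 and -2.57 (distance 0.10) and KLHL29 had -1.88 and -2.76 (0.12). SRGAP1, which acts downstream of SLIT and ROBO, had an intensity of 159 in B1 and 89.1 in B2, against 507 untreated (distance 0.29). The transcription factor gene NFIA had distance 0.32 and the nuclear receptor gene THRB 0.36. Their spans were 230 to 386 kb.

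Eph receptors act through Src family kinases, adaptors and exchange factors. Of 40 listed genes of this forward signalling 37 were measured, and 0 of 37 passed limma over all genes, with 4 lower and 0 higher at an unadjusted p of 0.05. These 4 were VAV2, TIAM1, NCK1 and ANKS1A, named together after their values were seen. In both arrays 20 were lower (54.1%) and 6 higher (16.2%), against 34.2% and 29.8% of all genes with a mean log2 level of at least 6. The list's medians were -0.27 in B1 and -0.16 in B2. TIAM1, an exchange factor for RAC1, had an intensity of 98.4 in B1 and 131 in B2, against 286 untreated, with log2 differences of -1.54 and -1.13 (adjusted p = 0.97 by limma). It was the only 1 of the 37 at least 2-fold lower in both arrays, against 0.678% of all genes. The reverse signalling and guidance lists below held 1 such gene each. ANKS1A, an adaptor that governs turnover of EPHA receptors, had 82.1 and 120 under cisplatin against 236 untreated, with differences of -1.52 and -0.97. The cisplatin arrays of both genes lay below the untreated array. For TIAM1 both probe sets were lower, with a mean of -0.80 over them.

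CHN1, a RAC1-inactivating protein that acts downstream of EPHA4 in the mouse spinal cord, had 243 in B1 and 107 in B2, against 339 untreated. LYN, a Src family kinase, had 353 in B1 and 19.2 in B2, against 485 untreated, and its 3 probe sets were lower in both arrays. Its mean difference of -2.56 thus rests mainly on B2, where the log2 difference was -4.66, against -0.46 for B1. The 6 forward signalling genes higher in both arrays were KALRN, GRB7, SRC, INPPL1, DVL2 and AKT1, the last by 0.15 and 0.12. These 6 are named after their values were seen.

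The forward signalling list holds many long genes, with a median span of 102 kb against 24.7 kb over all genes. Of its 20 genes over 100 kb, 14 were lower in both arrays (70.0%), against 70.4% of all 1687 genes over 100 kb with a mean log2 level of at least 6. Of its 17 shorter genes 6 were lower in both (35.3%), against 27.0% of 8516 genes. The share was thus near that of all long genes for the long genes of the list, and above that of all shorter genes for its shorter ones. The list includes 3 genes below a mean log2 level of 6, which the shares over all genes leave out. The part of span in the list's share was not tested.

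Genes of reverse signalling and of ephrin shedding showed smaller differences. Of 14 listed 13 were measured, of which 5 were lower (38.5%) and 3 higher (23.1%) in both arrays, against 34.2% and 29.8% of all genes with a mean log2 level of at least 6. The list's medians were -0.21 (B1) and -0.11 (B2), and 0 passed limma (1 lower at an unadjusted p of 0.05). That gene was NTRK2, a neurotrophin receptor that pairs with class A ephrins on axons in the chick. It had 109 in B1 and 106 in B2, against 236 untreated, with differences of -1.12 and -1.16 (adjusted p = 0.97 by limma), although 2 of the 6 NTRK2 probe sets gave higher values in both arrays and the mean over all was -0.51. ADAM10, the protease that cuts ephrins from the cell surface, had 1050.4 and 972 under cisplatin against 1317 untreated (-0.33 and -0.44), and all 3 of its probe sets were lower. STAT3 had 771 and 760.0 against 913, with differences of -0.24 and -0.26, but only 2 of its 4 probe sets were lower in both arrays and their mean was -0.12. MMP14, which cuts EPHA2, had 170 and 132 against 125, higher by 0.44 and 0.07, but its mean over 4 probe sets was -0.24.

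The other guidance systems, semaphorins with plexins, SLITs with ROBOs and netrins with their receptors, were listed for comparison. Of 46 genes 13 were lower (28.3%) and 13 higher (28.3%) in both arrays, so the lower share was near the 27.4% of all genes and the higher share below their 39.2%. The list's medians were -0.08 (B1) and 0.14 (B2), and 0 passed limma (3 lower, SLIT2, NRP1 and PLXNC1, and 0 higher at an unadjusted p of 0.05, the last pair of genes named after their values were seen). SLIT2, a repellent ligand, had 214 in B1 and 131 in B2, against 477 untreated (-1.15 and -1.86), and its 3 probe sets were lower. The repellent SEMA3A had 123 in B1 and 46.1 in B2, against 222 untreated, and the plexin gene PLXNA2 had 120.0 and 53.5 against 203. UNC5A, a netrin receptor gene, had 107 in B1 and 29.5 in B2, against 120 untreated, but only 1 of its 2 probe sets was lower in both arrays. The mean over all probe sets was -0.53 for UNC5A, against -1.09 for the brightest, and -0.79 for PLXNA2, against -1.34, although all 3 of its probe sets were lower. For SEMA3A, PLXNA2 and UNC5A the larger difference was thus in B2. These 4 span 537 kb (SEMA3A), 369 kb (SLIT2), 222 kb (PLXNA2) and 70.3 kb (UNC5A). Of the 24 guidance genes over 100 kb, dim ones included, 9 were lower in both arrays (37.5%), against the 70.4% given above for long genes with a mean log2 level of at least 6.

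**Figure D4:**
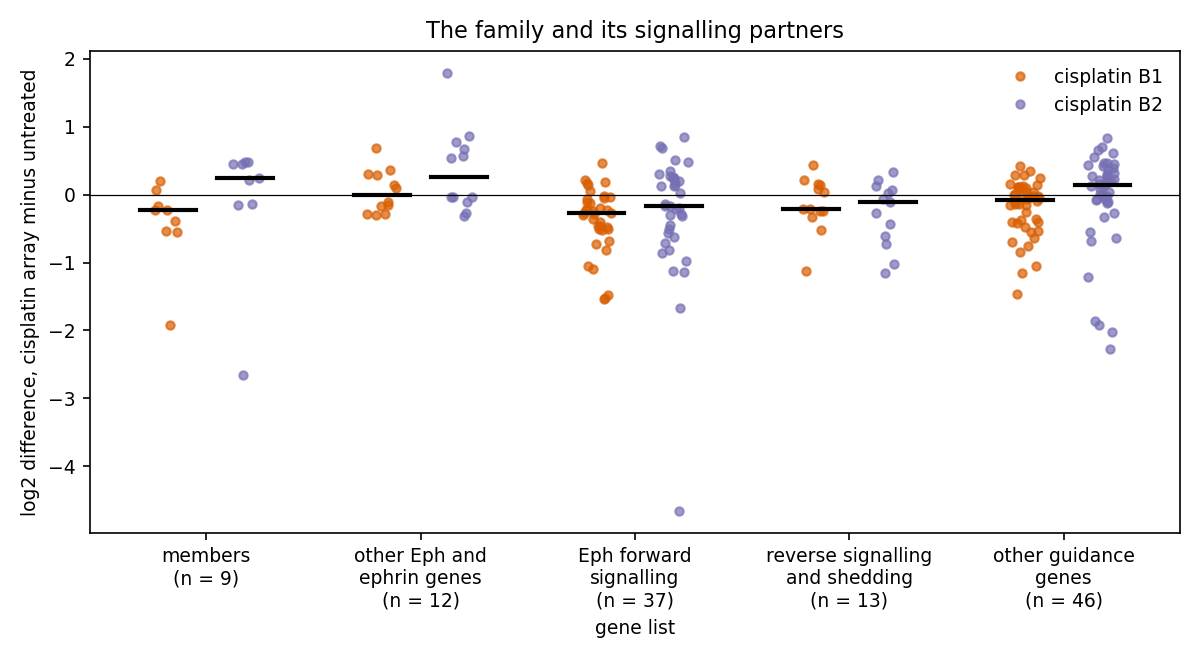
Log2 differences from untreated of the members, the 12 other family genes, 37 forward signalling genes, 13 reverse signalling and shedding genes and 46 other guidance genes, for cisplatin B1 (left in each pair) and B2 (right), with a bar at each median. The medians of the forward signalling list are -0.27 and -0.16, and the low points are EFNA5 among the members and LYN in B2 among the signalling genes.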

How the data were processed

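Per the submitters' processing notes, the deposited intensity values were made by the authors with RMA. The RMA version and the probe set definition are not stated there. The deposited intensities ran from 3.03 to 19645 with medians of 35.9 (B1), 35.6 (B2) and 34.8 (untreated), so they are linear, and log2 was taken without a pseudocount. Of 54675 probe sets, 62 controls were left out, and 41091 carried 1 gene symbol, 1801 several and 11721 none listed. Symbols were updated by gene number to RefSeq (GRCh38.p14). The brightest probe set stood for a gene. No column was left unused.

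R 4.3.3 and limma 3.58.1 (lmFit, then eBayes, with Benjamini-Hochberg adjustment) were applied to all 19775 genes, with 1 residual degree of freedom and the lone untreated array assumed to vary like the cisplatin pair. The fit was also run on simulated data with changed genes, which is no check of these arrays. With 1 residual degree of freedom such a fit can call little, so the lack of calls does not mean that no gene differed. A size rule counted genes at least 2-fold from untreated in both cisplatin arrays. The number of arrays limits the precision.

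The members and lists were chosen with earlier results of these data known. Named genes were the members, the rest of the family, 4 genes of each other list with the largest mean difference (same direction in both arrays, mean log2 of at least 6), 5 genes nearest to EFNA5 and its neighbours in rank. Alternatives covered probe set choice, normalization, dim-gene filters, the variance prior, size thresholds and each cisplatin array alone.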

Additional observations from a re-analysis of the deposited data

How the results depend on the processing

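Limma called 0 genes under all 9 settings of the fit, with 508 to 639 genes at an unadjusted p of 0.05 among the settings that kept all genes, and 264 and 356 above mean log2 levels of 6 and 5. The EFNA5 difference stayed negative throughout, but was -1.41 as the mean of its probe sets and -1.52 for the second brightest one, against -2.29. Genes at least 2-fold lower in both cisplatin arrays numbered 134, but 38 with the mean of all probe sets, 85 with the second brightest, 524 at 1.5-fold and 24 at 3-fold. The 28 higher genes became 189 at 1.5-fold and 4 at 3-fold. With 1 cisplatin array left out, 299 to 890 genes were at least 2-fold lower and 47 to 591 higher, and the members' median ran from -0.23 to 0.25. Of the members, 7 were lower and 2 higher with B1 alone, and 3 were lower and 6 higher with B2 alone. Over all genes 55.0% were higher than untreated in B1 and 56.6% in B2. Above a mean log2 level of 6, 2 members were lower in both arrays in place of 3, and 1 (EFNA3) was higher in both in place of 2. With the second brightest probe set 2 members were lower in both arrays and 3 higher. The members' median was 0.01 with the second brightest probe set and 0.02 after quantile normalization, against -0.04. The mean differences of EFNA4, EPHA2 and EPHB4, all near 0, changed sign under at least 1 alternative. The smaller counts with a stricter threshold or filter follow from its construction, and for the other changes the cause was not tested. No paired analysis was possible because the untreated group has 1 array, whose number pairs it with neither cisplatin array. No detection calls were used, so differences of dim probe sets such as those of EPHA4 have unknown signal over background.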
